A study of Mus musculus with 68 samples.

Results

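Late 2-cell and 4-cell embryos made by somatic cell nuclear transfer (SCNT) were compared, to follow how the transcriptome left the 2-cell program. The comparison used 11 of the 68 RNA-seq libraries of the study, chosen by their labels, with 6 libraries of the late 2-cell stage (L2C) and 5 of the 4-cell stage (4C). All 11 came from embryos labelled NT and untreated, made by injecting cumulus cell nuclei into enucleated oocytes of BDF1 mice, activating the oocytes with strontium chloride and cytochalasin B, and culturing the embryos without further agents. Each Smart-seq2 reaction held 10 blastomeres, stripped of the zona pellucida and the polar bodies, so every value is an average over several cells and embryos are not told apart. No fertilized embryo of these stages was among the libraries, and the labels do not say whether replicates came from separate rounds of nuclear transfer. The p-values therefore measure the spread between these libraries, which may be technical. The other 42 SCNT libraries, from 6 hours post activation (hpa) to the blastocyst, entered the fit for a steadier estimate of spread, and the early 2-cell (E2C) and 8-cell (8C) libraries served to place each change. Cumulus cells (CC), the donor cells, were used only as a check.

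In the mouse, the transcripts stored in the oocyte are degraded while the embryonic genome is switched on in a minor wave and then a major wave that peaks in the late 2-cell embryo. A set of genes that includes the Zscan4, Tcstv, Usp17l and Tdpoz families, many of them driven by or linked to the endogenous retrovirus MERVL, is transcribed in a burst at that stage and then shut off. By the 4-cell stage the embryo relies on its own transcripts for ribosomes, mitochondria and protein turnover. Cloned embryos often stall around these steps, and the histone mark H3K9me3 carried over from the donor nucleus is a known barrier to genome activation.

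The depth, as aligned gigabases recovered from coverage and FPKM, was 3.05 to 4.67 at L2C and 2.36 to 2.99 at 4C. At L2C between 9935 and 11771 reference genes reached 1 TPM, the length-corrected share of a library that a gene takes, and at 4C between 7972 and 9310. The mean count was lower by 2226 genes at 4C (exact two-sided permutation test over all 462 splits, p = 0.00433), and every 4C library lay below every L2C library. Every 4C library was also shallower than every L2C library, so stage and depth cannot be told apart in this count. The reference genes held 30.4% to 61.8% of the assembled TPM at L2C and 44.0% to 75.7% at 4C. Libraries of the same stage correlated at 0.771 to 0.948 over genes, and libraries of different stages at 0.637 to 0.781. L2C replicate 1 stood apart, with the lowest reference share (30.4%) and values near 0 for many 2-cell genes. Several results that rest on it are given with and without it, but those of the replicate sets are not. Replicates 1 to 3 and replicates 4 to 6 also differed. The reference share was 30.4% to 51.8% in the former and 57.8% to 61.8% in the latter at L2C, and 44.0% to 53.1% and 73.5% to 75.7% at 4C.

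With TPM as deposited, more genes fell than rose. Of 11867 genes tested, 3155 fell from L2C to 4C and 1404 rose by at least 2-fold at an adjusted p under 0.05 (limma on log2(TPM + 1), Benjamini-Hochberg). These were 26.6% and 11.8% of the genes tested, and 5725 genes had an unadjusted p under 0.05. Every 4C library was below every L2C library for 1702 genes (14.3%) and above it for 730 genes (6.15%). The median change of all genes tested was −0.33 on the log2 scale. Rises made up 30.8% of all calls with TPM as deposited, 22.6% after rescaling over the reference genes, where the median was −0.57, and 51.7% after quantile normalization, where it was 0.09, so the balance of rises and falls depends on the scale. TPM gives shares of a library, and in such pooled cells fewer cells of a kind and less RNA per cell cannot be told apart.

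The 20 gene lists examined separated into those that rose nearly as a block, those that fell nearly as a block and those that split. At the top stood the cytosolic ribosomal protein genes, with 75 of 81 higher and none lower, followed by the proteasome and respiratory chain genes. At the bottom stood the maternal oocyte genes, with 50 of 58 lower and none higher. The 2-cell program genes lay in the middle, with a median of −0.33 equal to that of all genes tested.

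**Figure D1:**
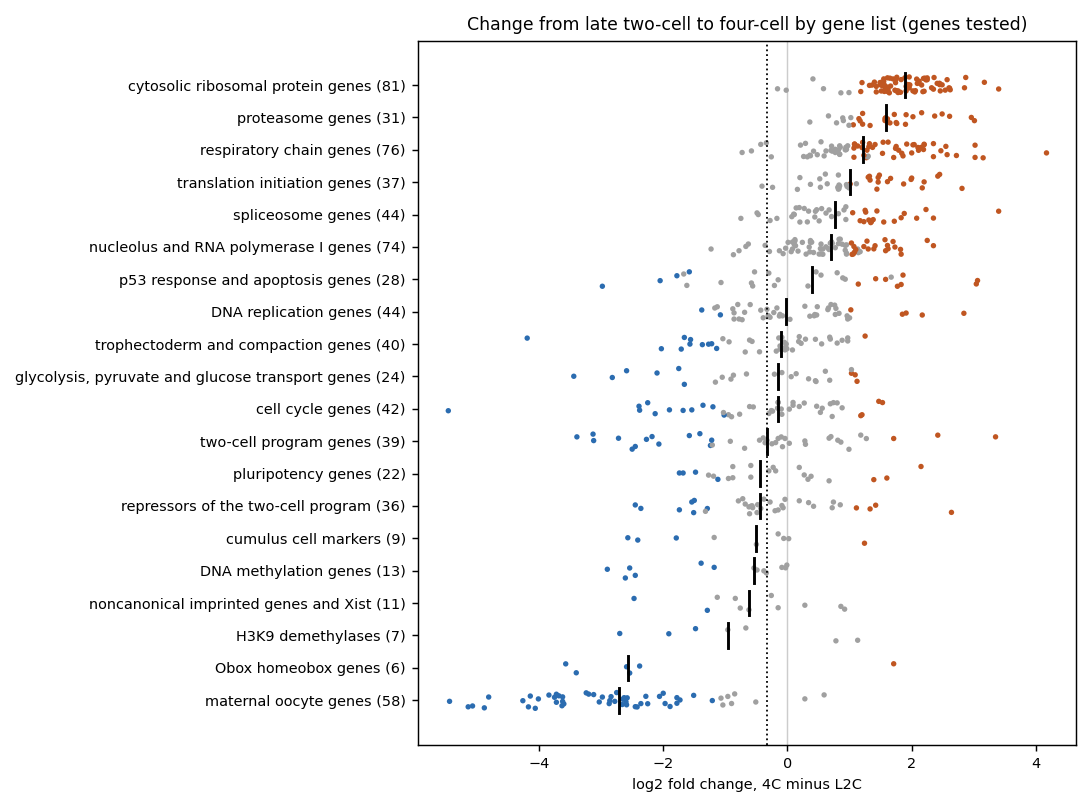
Log2 fold change from L2C to 4C (x axis, fitted on log2(TPM + 1)) of each tested gene in 20 lists, 1 point per gene, with the number tested in brackets. Orange points rose and blue points fell by the call, grey points were not called, black ticks are list medians and the dotted line is the median of all genes tested (−0.33). Ribosomal protein genes lie to the right (median 1.89) and maternal oocyte genes to the left (median −2.71).

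The genes listed for the 2-cell program did not fall as a block. Of the 45 listed genes 39 were tested, 13 fell and 3 rose, which is 33.3% and 7.69% beside 26.6% and 11.8% of all genes. Of the 39 tested, 17 had risen from E2C to L2C by the same call, so much of the list did not show a late 2-cell rise here. That rise was called for 23.7% of all genes tested. Dux (0 to 1.1 TPM at L2C), Zscan4b, Usp17la and Nkx3-2 were under the filter on low values. The summed TPM of the list was 231 to 2248 at L2C, with a median of 1743, and 1637 to 2754 at 4C, with a median of 1725. The sums of the stages overlapped, while single members moved far in both directions. Leaving out L2C replicate 1 gave 16 falls, 2 rises and a median of −0.95.

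The Zscan4 cluster on chromosome 7, which encodes zinc finger proteins of the 2-cell burst, was shut off. Zscan4c (chr7:11005745-11010547) was at 0.0665, 16.3 and 24.5 TPM at L2C as lowest, median and highest, and at 0.0107, 0.0108, 0.00565, 0.00519 and 0.182 TPM in the 5 libraries of 4C. The lowest L2C value was that of replicate 1, and the other 5 L2C libraries, at 9.48 TPM or more, all lay above every 4C library. The log2 fold change was −3.39 ± 0.51 (SE, n = 6 and 5, adjusted p = 2.6e-07), and −4.06 without L2C replicate 1. Zscan4f (−3.12 ± 0.51), Zscan4d (−3.13 ± 0.52) and Zscan4a (−2.45 ± 0.46) fell as well, and none of them exceeded 0.199 TPM in a 4C library. Zscan4f and Zscan4d were at 0 TPM in L2C replicate 1. In replicates 1 to 3 alone their changes, −1.77 and −2.01, did not pass the call. These copies are nearly identical, so reads may be split among them by the authors' assembly.

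The genes Rex2 and Zfp600, both encoding zinc finger proteins, fell with no overlap between the stages. Rex2 was at 26.8, 48.3 and 109.9 TPM at L2C and at 6.35, 10.3, 12.4, 7.35 and 11.8 TPM at 4C, a change of −2.27 ± 0.39 (adjusted p = 2.89e-06). Zfp600 fell by 2.18 ± 0.37 and Zfp750 by 2.07 ± 0.40, again without overlap. AF067061 fell by 2.72 ± 0.54, from a median of 27.2 TPM to between 0.0829 and 11.8 TPM.

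Against this, 3 genes of the list rose. Pramel7 (chr2:87489088-87492418), a PRAME-family gene whose product is known to drive degradation of UHRF1 in embryonic stem cells, was at 3.89, 41.6 and 84.5 TPM at L2C and at 166.6, 270.0, 192.3, 626.4 and 365.9 TPM at 4C. All 4C libraries exceeded all L2C libraries, and the change was 3.35 ± 0.48 (adjusted p = 1.02e-07). Ddit4l, a relative of the mTOR inhibitor REDD1, rose by 2.42 ± 0.53, also without overlap. Gm16513 rose by 1.71 ± 0.53 and lost the call without L2C replicate 1 (1.03, adjusted p = 0.0611). At 8C Pramel7 averaged 701.9 TPM and Ddit4l 20.9 TPM. Pramel7 then averaged 501.3 TPM in morulae, 524.8 TPM in the inner cell mass and 601.3 TPM in the trophectoderm. In these libraries it was not confined to the 2-cell stage.

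Other members were still present at 4C. Zfp352, a retrogene switched on at genome activation, was at 8.55, 98.8 and 148.2 TPM at L2C and at 43.3, 181.7, 68.7, 43.4 and 21.8 TPM at 4C, with overlapping libraries and a fitted change of −0.36 ± 0.62 (adjusted p = 0.678). Usp17lb, a deubiquitinase gene, was at 0.0972, 98.4 and 323.5 TPM at L2C and at 7.92, 39.8, 88.6, 53.3 and 99.4 TPM at 4C (−0.19 ± 0.69). Its change was −1.29 without L2C replicate 1, where it passed the call (adjusted p = 0.0296). By 8C Zfp352 had a mean of 0.976 TPM, and from 4C to 8C its fitted change was −5.18.

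**Figure D2:**
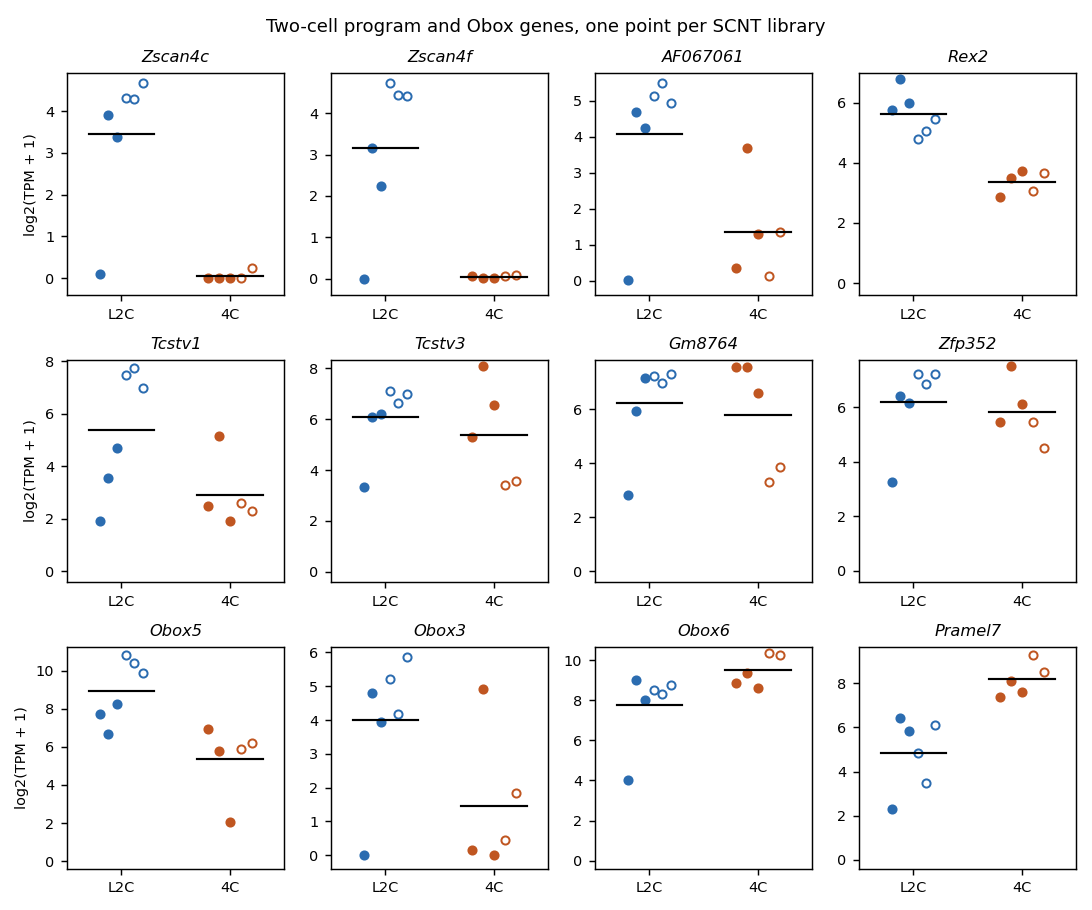
Level in log2(TPM + 1) (y axis) of 12 genes of the 2-cell program and the Obox family in each L2C (blue) and 4C (orange) library, with filled points for replicates 1 to 3, open points for replicates 4 to 6 and black lines for group means. Zscan4c and Zscan4f are near 0 in all 5 libraries of 4C, Tcstv3 and Gm8764 are low at 4C only in the open points, and Pramel7 is higher in every 4C library.

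The start regions of 3 genes are printed here because each holds the letters of a TATA box close to the start. They are the 80 bases before the RefSeq start on the strand of the gene (build GRCm38.p6), with the TATAAA in capitals. Zscan4f, at chr7:11397835-11397914 on the plus strand, was lower at 4C, Usp17lb, at chr7:104842584-104842663 on the minus strand, did not pass the call, and Oog3, at chr4:144162652-144162731 on the minus strand, is a maternal gene described below.
Zscan4f: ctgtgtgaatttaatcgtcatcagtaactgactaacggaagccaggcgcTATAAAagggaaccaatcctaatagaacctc
Usp17lb: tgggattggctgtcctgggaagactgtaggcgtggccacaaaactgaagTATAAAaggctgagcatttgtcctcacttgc
Oog3: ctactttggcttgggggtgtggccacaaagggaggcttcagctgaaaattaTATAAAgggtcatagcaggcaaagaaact
The motif began 31, 31 and 29 bases before the start. Among promoters of 300 bases, 250 before and 50 after the start, TATAAA on either strand was found in 13.6% of all 32851 and in 9 of 28 (32.1%) promoters of the 2-cell list. In the window from 40 to 20 bases before the start on the gene's strand, it was in 1.99% of all promoters and in 3 of 28 (10.7%) of the list. Oog3 is no example of its list, since in that window it was the only case among 57 maternal promoters (1.75%). On either strand TATAAA was in 8 of the 57 (14.0%), near the share of all promoters. GGATTA, a core read by paired-type homeodomain proteins such as OTX2, was in 7.06% of all promoters and in 9 of 28 of the list, on either strand. Matches of different motifs may share bases at their ends. Only 26 of the 45 genes had a promoter in the RefSeq table, too few for a check of the whole list, and the letters say nothing about binding.

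Replicates 1 to 3 and replicates 4 to 6 gave different accounts of the 2-cell program. In replicates 1 to 3 alone the median change of the list was 0.76, with 5 genes higher and 6 lower, and in replicates 4 to 6 alone it was −1.5, with 5 higher and 20 lower. L2C replicate 1, which was low for many 2-cell genes, belongs to replicates 1 to 3. The replicate sets were not fitted without it, so its part in this split was not tested. The difference between the 2 changes was fitted in limma after it had been seen. The same holds for every adjusted p of the difference given for a single gene below, so these describe the split and are no independent support for it. Only 2 libraries of 4C are in replicates 4 to 6. It passed an adjusted p of 0.05 for 10 of 39 genes of the list, beside 631 of all 11867 (5.32%), and for 9 of the 10 the change was lower in replicates 4 to 6. Of 34 genes tested in both sets, 11 were below 0 in both, 5 above 0 in both, 15 above 0 in replicates 1 to 3 and below 0 in replicates 4 to 6, and 3 the reverse.

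Tcstv3 showed the split plainly. It was at 9.15, 86.6 and 136.9 TPM at L2C, at 38.3, 270.9 and 92.7 TPM in 4C replicates 1 to 3 and at 9.63 and 10.9 TPM in 4C replicates 4 and 5. Its change was 1.42 in the former set and −3.43 in the latter, and the difference was −4.85 ± 1.1 (adjusted p = 0.00547). Tcstv1, its neighbour in the family, changed by −0.21 and −4.94 (adjusted p of the difference 0.000344), and Tdpoz1 by 1.11 and −4.33 (0.00273). Gm4340 changed by 2.02 and −3.39, and Gm8764 by 1.94 and −3.58. Pramel6 went the other way, with −1.75 and 2.35 (adjusted p of the difference 0.0114), and reached 379.9 and 206.6 TPM in 4C replicates 4 and 5. The labels give no batch for these numbers, and what sets the 2 sets apart was not tested.

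**Figure D3:**
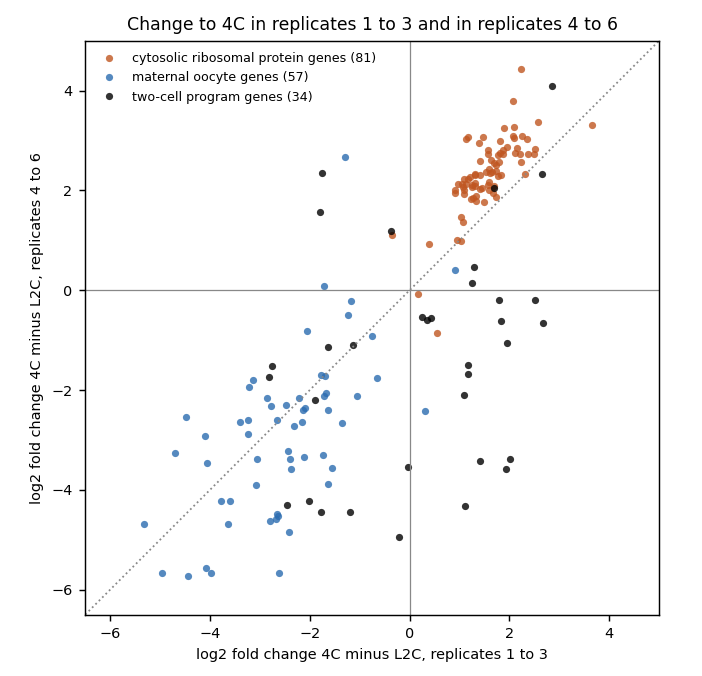
Log2 fold change from L2C to 4C in replicates 4 to 6 (y axis) against replicates 1 to 3 (x axis), each fitted alone, 1 point per gene, for 3 lists. The dotted line marks equal changes. Ribosomal protein genes lie mostly above 0 and maternal genes mostly below 0 on both axes, while 15 of the 34 genes of the 2-cell list lie at the lower right.

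The Obox homeobox genes, a family of transcription factors with maternal and zygotic members that act in genome activation, mostly fell. Obox1, Obox2, Obox5 and Obox7, which are stored in the oocyte, had fallen from E2C to L2C and fell again. Obox5 was at 101.7, 614.0 and 1790 TPM at L2C and at 122.0, 54.5, 3.18, 58.3 and 71.8 TPM at 4C (−3.57 ± 0.55, adjusted p = 4.66e-07), from a mean of 4813 TPM at E2C. Obox3 had risen from 1.27 TPM at E2C to a median of 22.1 TPM at L2C, and dropped to 0.104, 29.1, 0, 0.358 and 2.56 TPM at 4C (−2.54 ± 0.59). All 5 of its 4C libraries lay within the range of L2C, where replicate 1 was at 0, and 4C replicate 2 was above 4 of the 6 L2C libraries. The call did not hold in replicates 1 to 3 alone (−1.23).

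Obox6 alone of the 6 tested members rose. It was at 15.2, 338.7 and 520.6 TPM at L2C and at 468.3, 648.3, 389.1, 1292 and 1212 TPM at 4C (1.71 ± 0.64, adjusted p = 0.0264). The call did not hold without L2C replicate 1 (0.96, adjusted p = 0.176) or after quantile normalization (1.30). From E2C, where its mean was 6.03 TPM, the fitted rise to L2C was 5.14, and at 8C it averaged 1379 TPM. Near-identical Obox copies limit how far reads can be assigned.

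Placing each gene by its earlier change divided the genes further. From E2C to L2C 2812 genes had risen (23.7%) and 1329 had fallen (11.2%) by the same call. Of those that had risen, 643 rose again at 4C and 395 fell, and 1774 were not called, with a median of 0.20. Of those that had fallen, 681 fell again and 69 rose, with a median of −1.15. Both contrasts use the L2C libraries, so these counts are descriptions and were not tested.

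The 395 transient genes rose by a median of 1.83 and fell by a median of 1.75 on the log2 scale. Their median level was 2.25 TPM at E2C, 12.7 TPM at L2C, 2.88 TPM at 4C and 1.94 TPM at 8C, and the median change from E2C to 4C was 0.03. Of these genes 35 rose again to 8C and 46 fell further, where 11.5% of all genes rose and 8.23% fell. They included 5 genes of the 2-cell list, and Obox3. Every 4C library was below every L2C library for 133 of the 395, beside 14.3% of all genes tested. The 395 had already been picked as lower at 4C, so that count adds no separate support.

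None of the 10 transient genes with the largest spikes belonged to the gene lists. Gm4850, a predicted gene (chr1:31264847-31268061) went from a mean of 24.6 TPM at E2C to 21.6, 555.6 and 749.6 TPM at L2C and 0.358, 22.3, 7.20, 3.0 and 10.5 TPM at 4C, a change of −5.66 from L2C. Its 4C libraries reached the range of L2C only through L2C replicate 1. Gstm1, a glutathione S-transferase gene, went from 34.8 TPM to 229.3, 272.1 and 399.9 TPM and down to 26.6, 33.5, 50.3, 16.0 and 6.92 TPM. Every L2C library of Gstm1 was above every 4C library.

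The gene 2810417H13Rik, which encodes a PCNA-associated factor, was at 20.2, 30.8 and 64.9 TPM at L2C and at 0.569, 0.590, 0.115, 0.510 and 0.793 TPM at 4C, a change of −4.56. It overlaps Trip4 in the annotation, and reads of overlapping genes cannot be told apart without strand. Abca6, a lipid transporter gene, Meig1, a gene of spermiogenesis, Upk3a, a uroplakin gene, and Gal, which encodes the neuropeptide galanin, had changes of −3.60, −3.78, −2.94 and −2.91. The last 3 of these had a 4C library within the L2C range.

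The 643 genes that went on rising had medians of 2.0 from E2C to L2C and 1.65 from L2C to 4C. Their median level went from 9.06 TPM at E2C through 43.5 TPM at L2C to 140.8 TPM at 4C, and to 201.7 TPM at 8C and 200.9 TPM in morulae. At 8C 149 of them had risen further and 8 had fallen, where 11.5% of all genes rose and 8.23% fell from 4C. Edf1, a transcriptional coactivator gene, was at 8.13, 72.8 and 107.6 TPM at L2C and at 362.3, 431.9, 455.4, 498.2 and 660.8 TPM at 4C. Lamp2, a lysosomal membrane protein gene, went from a median of 39.5 TPM to between 92.7 and 896.2 TPM, and Psmb5, a catalytic subunit gene of the proteasome, from 31.6 TPM to between 107.0 and 411.8 TPM. A row named Mir686 lies inside Psmb5 on the same strand and had almost the same values, so the 2 cannot be told apart. Crxos, a homeobox gene, rose to between 599.2 and 4104 TPM, with 1 of its 4C libraries inside the L2C range.

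**Figure D4:**
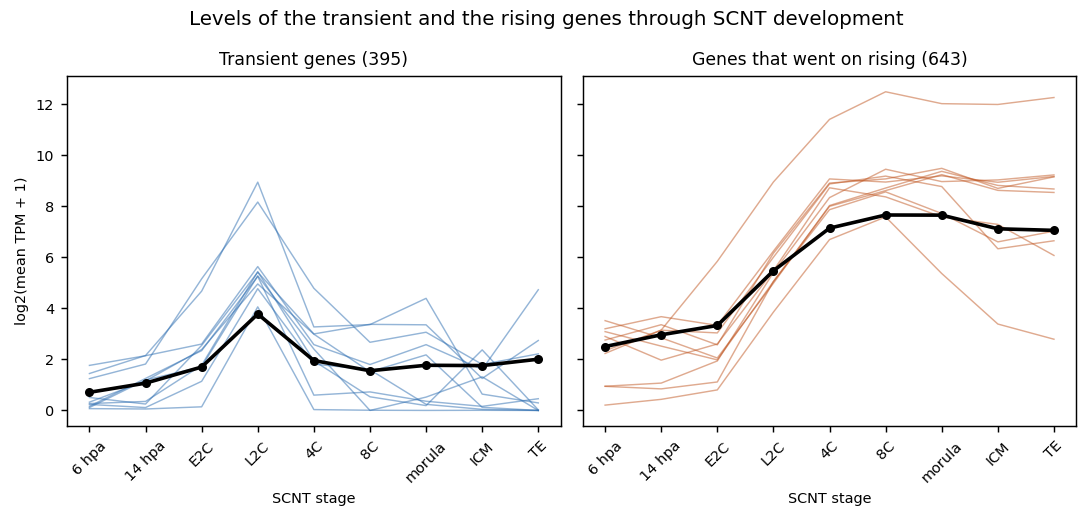
Level in log2(mean TPM + 1) (y axis) across SCNT stages (x axis) of the 395 transient genes (left) and the 643 genes that went on rising (right). Black lines are medians of the mean TPM over each class and thin lines the 10 named genes of each class. The median of the transient genes peaks at L2C with 12.7 TPM and is 2.88 TPM at 4C, and that of the rising genes reaches 140.8 TPM at 4C.

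Maternal transcripts fell nearly throughout. The summed TPM of 58 oocyte genes was 118400 to 127900 at E2C, 26600 to 81560 at L2C, 8567 to 14760 at 4C and 14060 to 16240 at 8C. Most of the sum at 4C came from a single gene that did not fall, Dppa3, described below, so the other members together were far lower at 4C than the sum shows. At L2C the sum was 26600 to 30900 TPM in replicates 1 to 3 and 68460 to 81560 TPM in replicates 4 to 6, while at 4C both sets lay below all L2C libraries. Of the 58 genes, 50 fell (86.2%, beside 26.6% of all genes tested). In 38 of the 58 every 4C library was below every L2C library, beside 14.3% of all genes tested. The median was −2.71, −2.43 in replicates 1 to 3 and −2.67 in replicates 4 to 6.

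Oosp1, an oocyte-secreted protein gene (chr19:11667460-11691051), was at 290.7, 1008 and 1676 TPM at L2C and at 45.1, 18.9, 1.24, 33.2 and 25.9 TPM at 4C (−5.44 ± 0.51, adjusted p = 7.8e-13). Bmp15, an oocyte growth factor of the TGF-β family, fell by 5.14 ± 0.42, and Gdf9, its partner, by 4.01 ± 0.55. Both were clear of overlap. Oog3, a leucine-rich repeat gene of the oocyte, fell by 4.88 ± 0.43, from a median of 5006 TPM to between 35.2 and 265.5 TPM. Omt2a and Omt2b, related genes of oocyte maturation, fell by 5.07 and 4.81 from median levels of 10120 and 16450 TPM, and Btg4, an adaptor of the deadenylase that clears maternal message, by 3.72 ± 0.50.

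Outside the list, Mfap2, a microfibril gene, had the largest fall without overlap, at 49.4, 193.0 and 371.6 TPM at L2C and 0.863, 0.364, 0.107, 6.40 and 6.85 TPM at 4C (−5.87 ± 0.43). Wee2, the oocyte kinase that holds CDK1 inactive, fell by 5.46 ± 0.33, Bmp5 by 5.28 ± 0.32, the ubiquitin ligase gene Siah2 by 5.17 ± 0.38 and Gnrh1 by 5.05 ± 0.39. Fbxw4 fell by 5.50 ± 0.54 and overlaps Dpcd in the annotation.

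A few maternal genes did not pass the call for a fall. Dppa3, which protects the maternal genome from demethylation, was at 1692, 8198 and 10250 TPM at L2C and at 7342, 6549, 9083, 12250 and 11630 TPM at 4C, a change of 0.59 ± 0.24 below the 2-fold limit (adjusted p = 0.0395). Khdc3, a subunit of the subcortical maternal complex, changed by 0.28 ± 0.72. It was at 0.0219, 0.788 and 27.9 TPM in 4C replicates 1 to 3 and at 69.4 and 56.4 TPM in replicates 4 and 5. Ybx2, Zar1l, Mos, Patl2, Padi6 and Figla were lower in the fit, with changes from −1.07 to −0.51 that did not pass the call. At 8C Khdc3 averaged 251.7 TPM.

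Genes for making and breaking down protein rose together. Of 81 cytosolic ribosomal protein genes 75 rose (92.6%) and none fell, with a median of 1.89, beside 11.8% and 26.6% of all genes tested. For 75 of the 81, Rps12 among them, every 4C library was above every L2C library, beside 6.15% of all genes. Their summed TPM was 12710 to 29860 at L2C, 54050 to 60530 in 4C replicates 1 to 3, 93080 to 94250 in 4C replicates 4 and 5, and 106100 to 113600 at 8C. The median was 1.58 in replicates 1 to 3 and 2.33 in replicates 4 to 6, and 69 genes passed after quantile normalization.

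Rpl29 was at 8.17, 24.0 and 52.4 TPM at L2C and at 180.4, 251.4, 145.9, 398.4 and 319.8 TPM at 4C (3.40 ± 0.36, adjusted p = 4.6e-11). Rpl3 rose by 3.17 ± 0.33, Rpl38 by 2.87 ± 0.29 and Rpl15 by 2.85 ± 0.22. The 6 genes that did not pass were Rps27l (−0.16), Rpl28 (−0.02), Rpl22l1 (0.41), Rpl22 (0.58), Rplp2 (0.86) and Rps12 (0.99). Rpl28 was at 160.0, 408.0 and 527.9 TPM at L2C and 252.3 to 476.3 TPM at 4C, while most of its partners in the ribosome had risen. Processed pseudogenes of these genes are common in the mouse, and how reads were shared with them is not given in the sources used here.

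Of 31 proteasome genes 24 rose (77.4%, beside 11.8% of all genes tested) and none fell, with a median of 1.58. In 19 of the 31 every 4C library was above every L2C library, beside 6.15% of all genes tested. Psmb6, a catalytic subunit, was at 53.3, 170.2 and 245.3 TPM at L2C and at 1047, 1047, 1186, 1221 and 1307 TPM at 4C (3.01 ± 0.23, adjusted p = 1e-15). From E2C, where its mean was 459.0 TPM, to L2C it had fallen by 1.68. Psmd6, of the regulatory particle, rose by 2.61 ± 0.44 and the ATPase subunit Psmc4 by 2.49 ± 0.53.

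Of 76 respiratory chain genes 43 rose (56.6%, beside 11.8% of all genes tested) and none fell, with a median of 1.22. In 41 of the 76 every 4C library was above every L2C library, beside 6.15% of all genes tested. Ndufs7, a core subunit of complex I, was at 0.653, 12.7 and 22.2 TPM at L2C and at 75.1, 204.2, 152.2, 256.7 and 303.0 TPM at 4C (4.17 ± 0.49, adjusted p = 8.1e-10). It overlaps Bc1 in the annotation. Ndufa3 rose by 3.15 ± 0.37, Ndufb7 by 3.02 ± 0.29 and Ndufa12 by 3.02 ± 0.31, while Cox8a, with −0.73 ± 0.39, did not pass. Other mitochondrial genes outside the list were among the largest rises. Mrps10 and Mrps34, of the small mitochondrial ribosomal subunit, rose by 3.77 ± 0.42 and 3.69 ± 0.45, the import gene Mtx1 by 3.65 ± 0.44, and the assembly factors Cox19 and Ndufaf1 by 3.64 ± 0.63 and 3.61 ± 0.67.

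**Figure D5:**
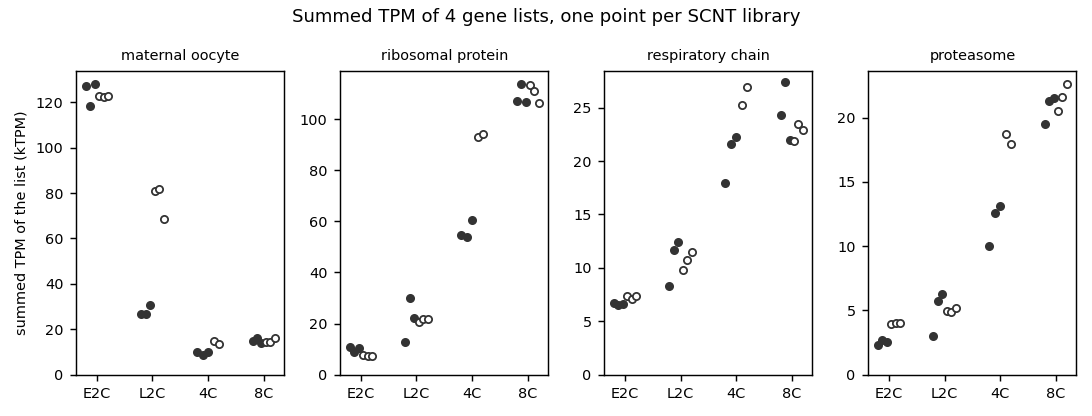
Summed TPM (y axis, linear, in kTPM) of 4 gene lists in each E2C, L2C, 4C and 8C library, with filled points for replicates 1 to 3 and open points for replicates 4 to 6. The maternal sum falls to 8567 to 14760 TPM at 4C while the ribosomal protein sum rises to 54050 to 94250 TPM, and the open and filled points part at L2C for the former and at 4C for the latter. Most of the maternal sum at 4C is Dppa3.

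Translation initiation genes rose in 18 of 37 cases (48.65%) and spliceosome genes in 18 of 44 (40.91%), beside 11.8% of all genes tested. Genes of the nucleolus and RNA polymerase I rose in 21 of 74 (28.38%). None of these lists held a fall, where 26.6% of all genes tested fell. The medians of the lists were 1.01, 0.77 and 0.70, in that order. Eif2b3, of the guanine nucleotide exchange factor for eIF2, rose by 2.81 ± 0.46, the eIF3 subunit gene Eif3g by 2.42 ± 0.32, the Sm-like gene Lsm5 by 3.40 ± 0.33 and the RNA exosome gene Exosc4 by 2.35 ± 0.38. Npm1, the nucleolar chaperone, rose by 1.23 ± 0.22, and its change differed between the replicate sets, at 0.61 and 2.02 (adjusted p of the difference 0.00186). Without L2C replicate 1 the nucleolar count was 14, and after rescaling over the reference genes it was 15 with 2 falls.

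The start regions of 4 rising genes are printed because each carries CCGGAA, the core read by ETS-family factors, within 50 bases of the RefSeq start. As above they are the 80 bases before the start on the gene's strand (GRCm38.p6), with the motif in capitals. They are Rpl38 at chr11:114668500-114668579 on the plus strand, Psmd6 at chr14:14120946-14121025 on the minus strand, Ndufs7 at chr10:80249369-80249448 on the plus strand and Eif3g at chr9:20898591-20898670 on the minus strand.
Rpl38: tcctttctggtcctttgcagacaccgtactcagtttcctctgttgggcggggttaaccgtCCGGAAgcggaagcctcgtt
Psmd6: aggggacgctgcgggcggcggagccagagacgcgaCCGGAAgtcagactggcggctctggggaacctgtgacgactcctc
Ndufs7: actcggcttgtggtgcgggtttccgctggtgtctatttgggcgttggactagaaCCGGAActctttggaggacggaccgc
Eif3g: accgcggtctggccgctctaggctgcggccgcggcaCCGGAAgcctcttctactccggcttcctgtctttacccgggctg
The motif began 20, 45, 26 and 44 bases before the start. On either strand of the 300-base promoter, CCGGAA was in 14.9% of all promoters, 27.8% of those of genes tested, 40.6% of those of genes that rose and 18.9% of those of genes that fell. It was in 34 of 71 (47.9%) ribosomal protein promoters, 15 of 27 (55.6%) proteasome promoters, 38.2% of respiratory chain and 36.1% of translation initiation promoters, beside 5.26% of maternal and 3.57% of 2-cell promoters. The median number of CpG in 300 bases was 22 for ribosomal protein genes and 20 for proteasome genes and for all genes tested, beside 3 for maternal and 2 for 2-cell genes. Promoters were found for 60 of 81 ribosomal protein genes and 464 of the 643 genes that went on rising, under 80% of each, so these shares do not cover the whole lists and no test was made.

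Most of the 12 largest rises without overlap lay outside the lists. Syngr1, which encodes the vesicle protein synaptogyrin 1 (chr15:80091334-80119501), was at 0.211, 3.77 and 5.45 TPM at L2C and at 33.1, 101.4, 122.7, 367.9 and 278.1 TPM at 4C (5.12 ± 0.42, adjusted p = 1.1e-14). Bloc1s1, of a complex in lysosome biogenesis, rose by 4.33 ± 0.44, Tmem234 by 4.23 ± 0.44 and Sfn, the 14-3-3σ gene, by 4.23 ± 0.52. Sfn then climbed from between 38.3 and 224.3 TPM at 4C to a mean of 1140 TPM at 8C. Each of the 12 largest rises and the 12 largest falls passed the call under all 22 alternatives. They were picked from the same libraries as called genes without overlap and with the largest changes, so passing was largely fixed by that choice.

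Of 36 genes known to restrain the 2-cell program 4 rose (11.1%) and 7 fell (19.4%), with a median of −0.45, beside 11.8% and 26.6% of all genes tested. Sumo2, the modifier that silences MERVL through SUMOylation, was at 151.4, 181.9 and 648.7 TPM at L2C and at 1271, 1055, 1387, 2021 and 1837 TPM at 4C (2.64 ± 0.30, adjusted p = 2.75e-10). Its change was 1.89 in replicates 1 to 3 and 3.53 in replicates 4 to 6 (adjusted p of the difference 0.00861). Kdm1a (1.42 ± 0.41), Hdac1 (1.33 ± 0.45) and Ehmt1 (1.11 ± 0.30) rose as well. Uhrf1, the reader of hemimethylated DNA, fell by 2.45 ± 0.59 and the remodeller Atrx by 1.51 ± 0.47, while Chaf1a (−0.61 ± 0.54), Trim28 (0.74 ± 0.39) and Setdb1 (−0.07 ± 0.41) did not pass.

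Suv39h2, which lays down H3K9me3, was at 21.6, 39.8 and 44.2 TPM at L2C and at 1.95, 9.99, 6.43, 4.67 and 9.58 TPM at 4C, without overlap (−2.36 ± 0.46, adjusted p = 3.23e-05). It overlaps Dclre1c in the annotation. Suv39h1, its paralog, was at 2.46 to 26.5 TPM and 3.83 to 11.3 TPM (−0.56 ± 0.45, adjusted p = 0.339). Max, a bHLH partner of MYC and MGA, fell by 1.54 ± 0.49, by 0.55 in replicates 1 to 3 and by 2.64 in replicates 4 to 6. Mcrs1 (0.31 ± 0.76) ranged from 1.71 to 103.9 TPM at 4C and did not pass.

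Of 7 H3K9 demethylase genes tested, Kdm7a (−2.70 ± 0.41), Phf8 (−1.91 ± 0.34) and Kdm4a (−1.48 ± 0.33) fell (42.9% of the list, beside 26.6% of all genes tested) and none rose. After quantile normalization 2 of the 7 rose and 2 fell. Kdm4b was at most 4.20 TPM in the L2C libraries and at most 0.759 TPM in the 4C libraries. Of 13 DNA methylation genes 6 fell (46.2%) and none rose. Tet3, the oxidase of the zygote, was at 8.22, 15.4 and 16.8 TPM at L2C and at 1.5, 1.66, 1.78, 1.6 and 0.608 TPM at 4C (−2.61 ± 0.34), Mbd2 fell by 2.90 ± 0.43, the imprint guardian Zfp57 by 2.54 ± 0.46 and Dnmt3b by 1.39 ± 0.39. Dnmt1 (−0.38 ± 0.46) and Dnmt3a (−0.01 ± 0.42) did not pass.

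Genes imprinted through maternal H3K27me3 rather than DNA methylation are known to lose that imprint in cloned embryos. Of 11 tested, Xist among them, 2 fell (18.2%) and none rose, beside 26.6% and 11.8% of all genes tested. Sfmbt2 fell from 3.2, 7.14 and 13.0 TPM at L2C to 1.33, 0.898, 0.125, 0.0129 and 0.0159 TPM at 4C (−2.47 ± 0.54), and Slc38a4 fell by 1.29 ± 0.38. Xist was at 1.33, 2.73 and 3.97 TPM at L2C and at 0.00392, 2.22, 5.87, 3.72 and 0.954 TPM at 4C, with overlap (−0.26 ± 0.37, adjusted p = 0.606), and it shares its locus with Tsix. After quantile normalization 2 of the 11 rose and 1 fell.

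Glycolysis, cell cycle and DNA replication genes were called at shares near those of all genes tested (26.6% lower and 11.8% higher), apart from fewer falls in DNA replication. In glycolysis and glucose transport 6 of 24 fell (25.0%) and 3 rose (12.5%). Tpi1 was at 34.4, 83.0 and 108.2 TPM at L2C and at 4.88, 0.810, 22.4, 9.10 and 3.91 TPM at 4C, without overlap (−3.44 ± 0.54). Pgk1 fell by 2.82 ± 0.60, Ldhb by 2.59 ± 0.49 and Slc2a1, the glucose carrier, by 2.10 ± 0.80, which did not pass after quantile normalization (−1.42) or in replicates 1 to 3 (−1.43), whereas Pdhb, Pdha1 and Aldoa rose by 1.09, 1.12 and 1.03. The 3 rises did not pass without L2C replicate 1, where the count was 0, nor after rescaling, where 10 fell. Tpi1 overlaps Spsb2.

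Of 42 cell cycle genes 11 fell (26.2%) and 4 rose (9.52%). The falls were led by Wee2 and included Aurkc (−2.39 ± 0.69), the meiotic APC/C inhibitor Fbxo43 (−2.38 ± 0.31) and Cdk6 (−2.25 ± 0.49), and the rises were Cdc26, Cdc20, Anapc11 and Cdk2, between 1.18 and 1.53. Without L2C replicate 1 the count of rises was 2. Of 44 DNA replication genes 5 rose (11.4%) and 2 fell (4.54%), with the largest rises in Gins3, of the replicative helicase, with 2.84 ± 0.56, and Pold2, of polymerase δ, with 2.17 ± 0.56. Quantile normalization gave 12 rises and 4 falls in that list.

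In the p53 and apoptosis list 8 of 28 rose (28.6%) and 4 fell (14.3%), beside 11.8% and 26.6% of all genes tested. The list had 7 rises, 2 falls and a median of 0.89 in replicates 1 to 3, and 7 rises, 7 falls and a median of −0.18 in replicates 4 to 6. Bax, the pore-forming effector of apoptosis, was at 3.55, 13.7 and 23.6 TPM at L2C and at 68.2, 105.7, 54.7, 200.2 and 183.4 TPM at 4C (3.06 ± 0.59, adjusted p = 2.82e-05). Bad rose by 3.04 ± 0.38 and overlaps Gpr137, and the survival gene Mcl1 rose by 1.83 ± 0.56. Mdm4, an inhibitor of p53, fell from 461.1, 632.4 and 696.8 TPM to between 59.7 and 106.1 TPM (−2.98 ± 0.39). Btg2, a p53 target, split between the replicate sets, with 21.6, 48.4 and 24.2 TPM in 4C replicates 1 to 3 and 0.348 and 0.231 TPM in replicates 4 and 5 (changes of 1.63 and −2.85, adjusted p of the difference 0.000284). Gadd45a parted in the same direction, by −0.70 and −4.15 (adjusted p of the difference 0.0325).

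Of 22 pluripotency genes tested 3 rose (13.6%) and 4 fell (18.2%), beside 11.8% and 26.6% of all genes tested, and after quantile normalization 5 rose and 1 fell. Dppa2, which primes the genome activation program, was at 36.4, 103.7 and 426.6 TPM at L2C and at 258.9, 441.8, 441.2, 897.9 and 751.1 TPM at 4C (2.15 ± 0.35, adjusted p = 1.59e-06), and Sall4 (1.6 ± 0.39) and Dppa4 (1.39 ± 0.41) rose too. Zfp42, Lin28a, Stat3 and Gbx2 fell by 1.68, 1.74, 1.48 and 1.12, and the fall of Lin28a did not pass after quantile normalization (−0.86). Pou5f1 was at 0.328, 4.98 and 21.4 TPM at L2C and at 0.238, 0.0264, 1.13, 5.54 and 1.04 TPM at 4C (−1.27 ± 0.72, adjusted p = 0.158), and from 4C to 8C, where it averaged 24.3 TPM, its fitted change was 3.15. Sox2 was at most 0.268 TPM at L2C and listed at 0 in every 4C library, and Nanog was at most 1.64 TPM in the 4C libraries. Utf1 changed by −1.81 in replicates 1 to 3 and 2.98 in replicates 4 to 6 (adjusted p of the difference 0.000211).

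Of 40 trophectoderm and compaction genes 10 fell (25.0%, beside 26.6% of all genes tested) and 1 rose, and after quantile normalization 4 fell and 9 rose, so this direction depends on the scale. Pard3, the polarity scaffold, was at 5.79, 47.1 and 100.7 TPM at L2C and at 0.272, 0.912, 0.121, 0.553 and 8.25 TPM at 4C (−4.19 ± 0.52), and −3.99 after quantile normalization. Ezr (−2.03 ± 0.50), Yap1 (−1.71 ± 0.44) and Krt18 (−1.66 ± 0.60) fell, and Lats2, the Hippo kinase, rose by 1.25 ± 0.41 from below 0.188 TPM to between 0.446 and 3.98 TPM. Cdx2 was listed at 0 in every 4C library. Tead4 (0.29 ± 0.50), Tfap2c (0.80 ± 0.52) and Cdh1 (−0.45 ± 0.39) did not pass.

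The labels of the embryos were checked against the donor cells. The summed TPM of 25 cumulus cell markers was 39.6 to 94.3 at L2C and 31.0 to 81.2 at 4C, and 6887 to 9046 in cumulus cells. Of the 25, 11 were under 1 TPM in every L2C and 4C library and 7 were listed at 0 in every 4C library. Among the 11, Amh, Col1a2 and Has2 averaged only 0, 0.0111 and 0.684 TPM in cumulus cells, so they do not mark donor RNA here. Amh and Col1a2 are also among the 7. Of 9 that were tested 3 fell (33.3%) and 1 rose (11.1%), beside 26.6% and 11.8% of all genes tested. Vim, the intermediate filament gene, fell by 2.57 ± 0.45 from a median of 8.15 TPM, Bmpr1b by 2.41 ± 0.25 and Tnfaip6 by 1.79 ± 0.49, while Amhr2 rose by 1.24 ± 0.52 and lost the call without L2C replicate 1. Bmpr1b averaged 13.85 TPM in cumulus cells and 15.23 TPM at E2C. Amhr2 averaged 4.35 TPM in cumulus cells and 21.98 TPM at 8C, so neither gene sets donor cells apart from embryos. The part of carried-over or contaminating donor RNA in any result was not tested.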

How the data were processed

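The authors trimmed reads with Cutadapt, aligned them to mm10 with HISAT2 and assembled and quantified them with StringTie. The deposited tables give TPM, FPKM and coverage per assembled feature and library. The deposited TPM column was treated as a score, because rows of assembled loci fill the library total and rows with a gene name give the same reads again, so that it sums to more than TPM would. FPKM values and the coverage signal, as deposited by the authors, were used only to recover aligned gigabases. The depth limits low values, and no counts were used, so no count model was fitted.

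Rows without a gene name were left out and TPM was summed per gene, over 24421 symbols. Genes with a mean of at least 1 TPM were tested with limma 3.58.1 in R 4.3.3 on log2(TPM + 1), over 53 SCNT libraries in 9 groups, with Benjamini-Hochberg adjustment. Genes were called when the fold change reached 2 and the adjusted p was below 0.05. Fold changes on this scale understate the change of low genes, and ± values are standard errors. Transient genes were called higher from E2C to L2C and lower from L2C to 4C, and genes that went on rising higher in both. In simulated data with 200 changed genes among 11867, 50% were recovered at a log2 change of 1.5 and 96% at 3. Of 153 calls there, 7 were false. The changed genes all had a mean log2(TPM + 1) above 3 at L2C, so recovery of lower genes was not tested. The simulated noise was independent between libraries and held no difference between replicate sets, unlike the data.

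Named genes were the 12 largest rises and the 12 largest falls without overlap and with a mean of at least 5 TPM in the higher group, the 10 transient and the 10 rising genes with the largest smaller change, up to 4 called members of each list, and a fixed set of 2-cell, lineage and chromatin genes. Other members were named after their values were seen, to describe their list. The members and lists were chosen with earlier results of these data known. Other scalings, filters, pseudocounts, replicate sets and single libraries left out served as alternatives. Promoter sequences and gene starts are from RefSeq (GRCm38.p6). Exact tests used scipy 1.17.1.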

Additional observations from a re-analysis of the deposited data

Results flagged for a closer look

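In 262 groups of 4 to 10 libraries of the named genes, 31 had a highest or lowest library set apart from the rest by Dixon's criterion on log2(TPM + 1), which chance alone meets in about 1 in 20 groups. Of these values 16 came from L2C replicate 1, which also had the lowest share of TPM in reference genes. Its values were low for the 2-cell and Obox genes, with Zscan4c at 0.0665, Tcstv3 at 9.15, Zfp352 at 8.55, Usp17lb at 0.0972, Rfpl4b at 0.0, Gm4850 at 21.6, Obox3 at 0.0, Obox6 at 15.2 and Klf17 at 23.7 TPM. They were also low for Bmp15 at 218.5, Mrps34 at 1.11, Edf1 at 8.13, Exosc5 at 0.855, Rpl15 at 18.1 and Psmd6 at 9.98 TPM. Cdx2 in the same library, at 0.0434 TPM, was the only value above 0 among the L2C libraries.

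Of the other L2C libraries, replicate 2 stood apart for Tmem234 (19.5 TPM), Obox2 (39.7 TPM), Gins3 (27.03 TPM) and Sox2 (0.268 TPM), replicate 4 for Ezr (1.98 TPM) and replicate 6 for Tnfaip6 (1.57 TPM). At 4C, replicate 1 stood apart for Meig1 (20.8 TPM), replicate 2 for Slc2a1 (3.62 TPM) and Tcstv1 (34.3 TPM), replicate 3 for Oosp1 (1.24 TPM) and Obox5 (3.18 TPM), replicate 4 for Pold2 (18.1 TPM), and replicate 5 for Zscan4c (0.182 TPM), Pard3 (8.25 TPM) and Tet3 (0.608 TPM).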

How the results depend on the processing

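Of 4559 genes called, replicates 1 to 3 alone gave 2866 and replicates 4 to 6 alone 5877. Rises (1404) were 2394 after quantile normalization, 870 in replicates 1 to 3 and 2226 in replicates 4 to 6, and falls (3155) were 2045 at a mean of at least 5 TPM and 1996 in replicates 1 to 3. Transient genes (395) were 182 at a mean of at least 5 TPM, 870 after rescaling, 246 after quantile normalization, 220 in replicates 1 to 3, 630 in replicates 4 to 6 and 168 with the rise from replicates 1 to 3 and the fall from replicates 4 to 6. Rising genes (643) were 268 in replicates 1 to 3 and 1056 in replicates 4 to 6. The difference in genes at 1 TPM or more was −2144.7 in replicates 1 to 3 (exact permutation p = 0.1) and −2172.3 in replicates 4 to 6 (p = 0.2), the smallest p these sizes allow. Leaving out 1 library at a time gave 4254 to 4587 called genes, 1166 to 1620 rises, 2940 to 3367 falls, 311 to 429 transient and 551 to 717 rising genes, and differences from −1996.8 to −2462.0 genes. A fit with the replicate number as a block called 4725 genes, 1547 higher and 3178 lower, with 423 transient and 675 rising genes. The numbers were not taken as pairs, since libraries sharing one correlated in their deviations at 0.013 to 0.193, and 2 of the 4C libraries correlated best with their own number. The cause of these differences was not tested.

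Of the values of called named genes under the alternatives, 2432 kept their call, 63 lost it and 0 reversed. Most of these genes were named for their large changes in the same libraries, so the count does not measure the stability of calls in general. Among the named genes, only those not called changed direction. In replicates 1 to 3 the changes were 1.42 for Tcstv3, 1.09 for Zfp352, 0.42 for Usp17lb, −0.21 for Tead4, −0.20 for Mcrs1 and 0.42 for Suv39h1. In replicates 4 to 6 they were 0.04 for Nanog, 0.74 for Klf5, 0.00 for Cdx2 and 0.18 for Cdh1, and after quantile normalization 0.29 for Nanog, 0.01 for Cdx2, 0.32 for Cdh1 and 0.54 for Xist. Usp17lb was at 0.19 with a pseudocount of 0.1, and ran from −1.29 to 0.40 over the libraries left out, with 0.35, 0.04 and 0.08 without L2C replicates 2, 4 and 6. Cdx2 was at 0.05 and 0.03 in the fits with a replicate block and at −0.01 to 0.00 with 1 library left out. Over the libraries left out, Tead4 ran from −0.12 to 0.78, Xist from −0.58 to 0.12 and Mcrs1 from −0.27 to 1.04. Low genes are limited by depth, since TPM keeps no counts.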
